A study of Homo sapiens with 2 samples.

Results

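The ATF4 response is the set of genes that cells switch on when the translation factor eIF2 is phosphorylated, for example during amino acid shortage or stress of the endoplasmic reticulum. Protein synthesis as a whole then slows, while the mRNA of the transcription factor ATF4 is translated more efficiently. ATF4 pairs with C/EBP and related proteins and drives genes for amino acid synthesis and uptake, for transfer RNA charging and for feedback on growth signalling. The enzymes that make serine from a glycolytic intermediate, and the mitochondrial enzymes that take carbon units from serine onto folate, are among its known targets, and rapidly dividing tumour cells use them to supply nucleotide synthesis.

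The group described here has 36 genes, of 19775 genes that had at least 1 probe set naming them alone, and was chosen by name from what is known of the pathway, with earlier results of these data known. It was measured in SW620, an established human colorectal cancer line grown from a lymph node metastasis, on 1 Affymetrix array from cells carrying a lentiviral short hairpin RNA against SOX2 and 1 from cells carrying a non-targeting hairpin, the mock knockdown. Both cultures were grown in RPMI-1640. The labels conflict in places. The description of both samples names liver of knockout mice and the design text mentions gastrulation, while the source names give SW620 cells. The sample titles carry the letters KO, where the source names say knockdown. The groups were taken from the source names. The study asked which genes SOX2, a transcription factor best known from embryonic stem cells and neural progenitors, controls in colorectal cancer cells. Whether each culture was a pool or a single clone, and which sequence each hairpin had, the sources used here do not give. With 1 array per group there were no replicates, so no difference was tested and no p-value is given.

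Each gene was read at its probe set with the highest mean level over both arrays, and its other probe sets served as a check. The values are RMA intensities on a linear scale, and every difference is SOX2 knockdown minus mock on the log2 scale. A floor was placed at the median of all values, an intensity of 68.5, and a gene entered when it reached the floor on at least 1 array. Of the 36 genes 35 had a probe set with a single gene symbol, GPT2 having none, and 33 reached the floor. SHMT1, the cytosolic serine hydroxymethyltransferase, and ALDH1L2, a mitochondrial folate enzyme, stayed under it on both arrays. A gene was called when its values as deposited differed by at least 2-fold. When the dimmer value of a named gene was under the floor, its fold was computed with the floor in its place and is a lower bound.

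Both arrays had close medians, 68.1 for SOX2 knockdown and 69.0 for mock, and Pearson's r between them was 0.847 across 13609 genes, which are not replicates. SOX2 was at least 30.3-fold lower on the SOX2 knockdown array at its brightest probe set, with an intensity of 20.9 there and 2077 on the mock array, while a further probe set kept 36.2% of the mock value. Markers of colorectal epithelium reached the floor in 10 of 10 genes on the SOX2 knockdown array and in 9 of 10 on the mock array, CDH17 being the exception. Their summed intensity was 63379 and 50614. Of 4 leukocyte markers with a probe set, PTPRC and CD3E lay under the floor on both arrays, whereas LYZ stood at 11691 on the SOX2 knockdown array and 213 on the mock array, and CD14 at 156 and 43.6. Fibroblast markers reached the floor in 3 of 6 genes under SOX2 knockdown and 4 of 6 under mock, with summed intensities of 519 and 619, and endothelial markers in 2 of 3 on each, with 224 and 256. The ratio of the 3′ to the 5′ control probe set, a sign of RNA integrity, was 1.43 for ACTB on the SOX2 knockdown array and 1.20 on the mock array, and 1.06 and 1.04 for GAPDH. The part of these differences in the results below was not tested, and fewer cells with a transcript cannot be told apart from less transcript per cell.

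Most of the group was lower under SOX2 knockdown. Of the 33 measured genes 17 were at least 2-fold lower and 0 at least 2-fold higher, where the background over all 13609 measured genes was 7.29% lower and 8.44% higher. With values under the floor raised to it, 17 and 0 members were called, beside 6.64% and 7.85% of all genes. Values below 0 were found in 30 of the 33, against 50.5% of all genes, and 7 were at least 4-fold lower with values under the floor raised to it, against 1.68%. The median difference was -1.24, beside -0.0063 over all measured genes. STC2, INHBE and VLDLR, counted here, reached the floor only on the mock array, where they were high. With the floor required on both arrays, 14 of 30 members were lower and 0 higher, beside 5.58% and 6.68% of all genes. The member median was then -0.91. CEBPB, KLHL24 and MTHFD1L were the genes above 0. At a limit of 3-fold 12 members were lower and 0 higher, where 3.43% and 4.44% of all measured genes were, and at 1.5-fold 23 were lower and 1 higher, where 14.8% and 15% were.

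**Figure D1:**
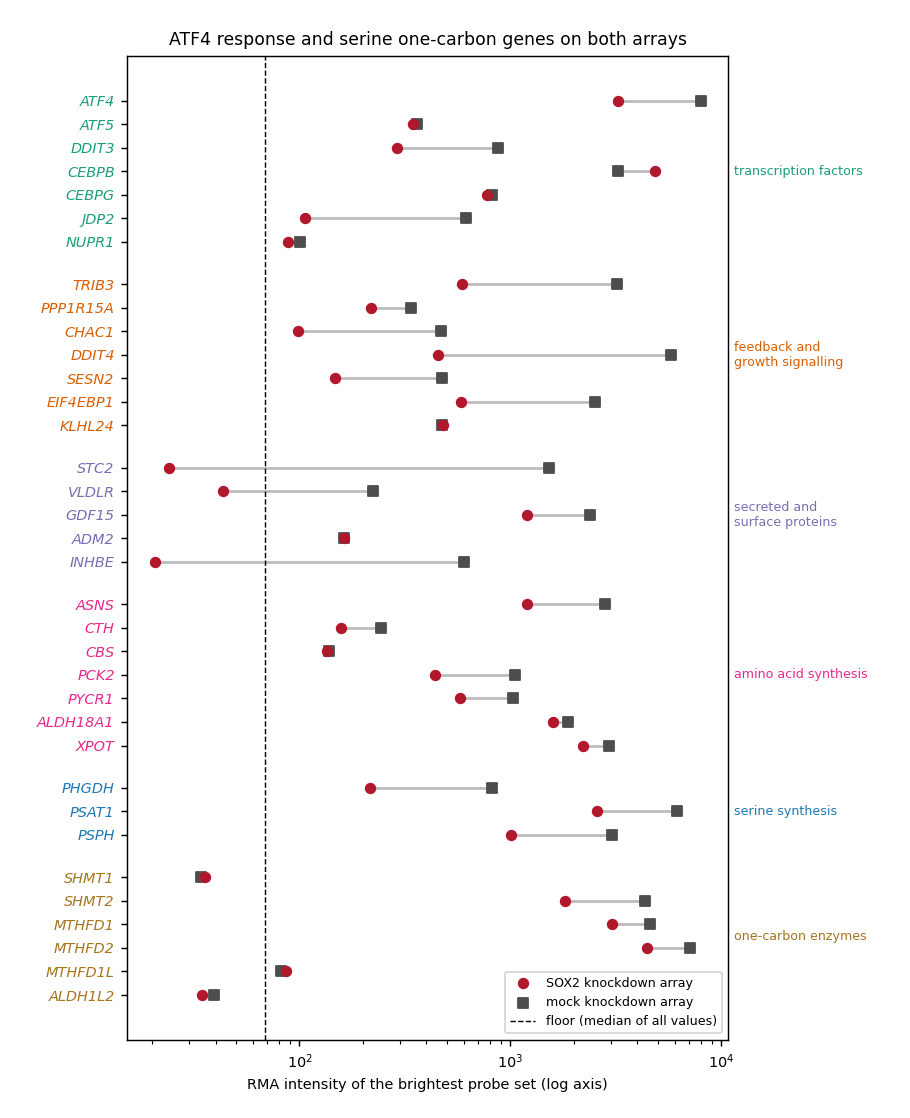
RMA intensity (log axis) of the brightest probe set of each of the 35 genes with a probe set, red circles for the SOX2 knockdown array and grey squares for the mock array, with names coloured by role and the floor of 68.5 dashed. The red circle lies left of the grey square for most genes, farthest for STC2, INHBE and DDIT4 (the circles of STC2 and INHBE lie under the floor), and right of it most clearly for CEBPB.

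The C/EBP-ATF response element, the site through which ATF4 acts, is shown for the members whose promoter held its core upstream of the start, as the sequence context of the pathway. The core was searched as TGATGNAA on both strands, in 300 bases from 250 before to 50 after the annotated gene start, in RefSeq promoters of GRCh38.p14. Of 28 members with a promoter in that set, ASNS, CHAC1 and MTHFD1L held it, or 10.7%. Of all 27305 promoters 3.71% did, and of the 10897 of genes that reached the floor 1.91%. The windows below are written 5′ to 3′ along the gene, with the core in capitals.
ASNS, chr7:97872423-97872522, minus strand: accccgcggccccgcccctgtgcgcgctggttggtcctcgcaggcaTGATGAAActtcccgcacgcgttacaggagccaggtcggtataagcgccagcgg
CHAC1, chr15:40953221-40953315, plus strand: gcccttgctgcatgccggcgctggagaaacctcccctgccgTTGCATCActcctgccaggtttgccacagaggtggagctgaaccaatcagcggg
In ASNS the core begins 68 bases before the start, and in CHAC1 it lies on the opposite strand and begins 209 bases before the start. Both genes were at least 2-fold lower under SOX2 knockdown. The core of MTHFD1L lay 24 bases past the start, and that gene differed by 0.07. A search for ACAAAG, the core of SOX sites, on both strands of the same promoters found it in 5 of the 28 members, or 17.9%, in 16.1% of all promoters and in 11.3% of those of genes that reached the floor. STC2 was the only member at least 2-fold lower among those 5, the others being ATF5, CTH, GDF15 and KLHL24. Of 13 called members with a promoter, 2 held TGATGNAA and 1 held ACAAAG. Of 14 within 2-fold, 1 and 4 did. The called genes EIF4EBP1, INHBE, PSPH and SHMT2 had no promoter in that set. With so few genes no difference between the groups was tested. A match in such a window is a description and does not show binding, and ATF4 can act through elements outside it.

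Among the transcription factors, 3 of 7 were at least 2-fold lower. ATF4, the activator that names the response, had an intensity of 3231 on the SOX2 knockdown array and 7976 on the mock array, a difference of -1.30 or 2.47-fold lower. ATF4 is largely controlled at translation, which these arrays do not measure. DDIT3, the factor CHOP that forms dimers with C/EBP proteins under prolonged stress, stood at 290 under SOX2 knockdown and 872 under mock, a difference of -1.59. JDP2, a bZIP repressor of AP-1 sites, showed the largest difference of the 7, with 106 under SOX2 knockdown and 617 under mock, a difference of -2.54.

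The other factors lay within 2-fold at their brightest probe sets. CEBPB, a C/EBP family activator and partner of ATF4, was higher under SOX2 knockdown, at 4863 against 3225 under mock, a difference of 0.59 that lies within 2-fold. CEBPG, another dimer partner of ATF4, stood at 778 under SOX2 knockdown and 814 under mock, and its second probe set differed by 0.34. NUPR1, a small stress-induced chromatin protein, had 87.9 under SOX2 knockdown and 101 under mock, both close to the floor. For ATF5, a relative of ATF4 that is also translated under stress, the probe sets disagreed. Its probe set of highest mean read 345 under SOX2 knockdown and 362 under mock. A further pair read 533 and 266 under SOX2 knockdown against 216 and 97.3 under mock, differences of 1.30 and 1.45. The remaining probe set read 174 under SOX2 knockdown and 164 under mock, a difference of 0.09. ATF5 was therefore level or higher, depending on the probe set.

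Of the feedback and growth signalling genes 5 of 7 were at least 2-fold lower, with a median of -2.12. DDIT4, also called REDD1, which restrains the growth kinase mTORC1, had an intensity of 452 under SOX2 knockdown and 5793 under mock, 12.8-fold lower. Of all 13609 measured genes 81 had a more negative difference. TRIB3, a pseudokinase that feeds back on ATF4 and CHOP, read 591 under SOX2 knockdown and 3214 under mock, a difference of -2.44, and its other probe set differed by -1.61. CHAC1, which degrades glutathione, read 98.8 under SOX2 knockdown and 469 under mock, a difference of -2.25. These 3 genes are widely used as readouts of ATF4 and CHOP activity, and all were more than 4-fold lower at their brightest probe set.

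SESN2, a leucine sensor that restrains mTORC1, read 148 under SOX2 knockdown and 476 under mock, and its probe sets differed by -1.68 and -1.57. EIF4EBP1, the translation repressor that mTORC1 phosphorylates, read 580 under SOX2 knockdown and 2529 under mock, a difference of -2.12. Both are inhibitors on the mTORC1 pathway, as is DDIT4, and all were lower. PPP1R15A, or GADD34, the subunit that directs a phosphatase to eIF2 and so ends the response, read 219 under SOX2 knockdown and 338 under mock, a difference of -0.63, which lies within 2-fold. KLHL24, a ubiquitin ligase adaptor, was nearly level at 478 and 474, and its other probe sets that reached the floor differed by -0.04 and 0.06.

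Of the secreted and surface proteins 3 of 5 were at least 2-fold lower, each of them under the floor on the SOX2 knockdown array at its brightest probe set. STC2, stanniocalcin 2, a secreted glycoprotein, read 24.2 under SOX2 knockdown and 1526 under mock, and was at least 22.3-fold lower against the floor. This bound, a difference of -4.48 or lower, was the largest among the members. Its second probe set, at 85.6 under SOX2 knockdown and 390 under mock, was above the floor on both arrays and differed by -2.19, so the size rests on the probe set while the direction was shared. INHBE, the beta E subunit of the inhibin and activin family, read 20.6 under SOX2 knockdown and 603 under mock, at least 8.80-fold lower, from a single probe set. VLDLR, a lipoprotein receptor, read 43.6 under SOX2 knockdown and 223 under mock, at least 3.25-fold lower.

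GDF15, a secreted cytokine of the TGF-beta family induced by many stresses, lay just outside the limit. Its brightest probe set read 1197 under SOX2 knockdown and 2384 under mock, a difference of -0.99. The other probe sets of GDF15, at 79.7 and 77.7 under SOX2 knockdown and 79.5 and 81.1 under mock, were close to the floor and level. ASNS, at -1.24, was the called gene closest to the limit. ADM2, the adrenomedullin-like peptide, was level at 163 on each array.

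All 3 enzymes of serine synthesis were at least 2-fold lower, with a median of -1.59. PHGDH, which oxidises 3-phosphoglycerate at the entry to the pathway, read 216 under SOX2 knockdown and 814 under mock, 3.77-fold lower. PSAT1, the aminotransferase of the middle step, read 2584 under SOX2 knockdown and 6180 under mock, a difference of -1.26, and its other probe set differed by -1.72. PSPH, the phosphatase that releases serine, read 1002 under SOX2 knockdown and 3024 under mock, 3.02-fold lower. The 3 probe sets of PSPH spanned -1.68 to -1.36 as deposited. The dimmest, at -1.36, read 28.8 under SOX2 knockdown, which is under the floor, and 73.7 under mock, just above it. The whole linear pathway from the glycolytic intermediate to serine was thus represented among the called genes.

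The folate enzymes that use serine showed smaller differences. SHMT2, the mitochondrial enzyme that splits serine into glycine and a folate-bound carbon unit, read 1822 under SOX2 knockdown and 4332 under mock, 2.38-fold lower. Its 3 probe sets lay between -1.56 and -1.25, so each was more than 2-fold lower. MTHFD2, the next mitochondrial step, read 4451 under SOX2 knockdown and 7116 under mock, a difference of -0.68, with its second probe set at -0.99. MTHFD1, the cytosolic enzyme with 3 activities, read 3026 under SOX2 knockdown and 4589 under mock, a difference of -0.60. MTHFD2 and MTHFD1 were thus both lower, by less than 2-fold. MTHFD1L, the mitochondrial formate-releasing enzyme, was close to the floor and level, at 85.9 under SOX2 knockdown and 81.9 under mock. SHMT1 read 35.7 and 34.2 and ALDH1L2 34.7 and 39.3, all under the floor, and neither was counted.

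Genes of other amino acids were lower by less than those of serine synthesis, and by about as much as the one-carbon enzymes. Of 7 measured genes in this role, which includes XPOT, every one had a negative difference and 2 passed the 2-fold limit, with a median of -0.64. ASNS, which makes asparagine from aspartate and glutamine, read 1192 under SOX2 knockdown and 2815 under mock, 2.36-fold lower. PCK2, the mitochondrial phosphoenolpyruvate carboxykinase, read 440 under SOX2 knockdown and 1051 under mock, 2.39-fold lower. In proline synthesis PYCR1, the last enzyme, read 577 under SOX2 knockdown and 1026 under mock, a difference of -0.83. ALDH18A1, the first, read 1585 under SOX2 knockdown and 1880 under mock, and both its probe sets differed by -0.25 and -0.24. XPOT, the export factor for transfer RNAs, read 2217 under SOX2 knockdown and 2929 under mock, a difference of -0.40.

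In transsulfuration, the route from homocysteine to cysteine, the values of CBS and CTH were low. CTH, the second enzyme, read 157 under SOX2 knockdown and 245 under mock, a difference of -0.64, with -0.47 at the other probe set. CBS, the enzyme before it, was level at its brightest probe set, 135 under SOX2 knockdown and 138 under mock. Its dimmer probe sets read 61.8 and 42.0 under SOX2 knockdown, both under the floor, against 120 and 95.8 under mock. The differences as deposited were -0.95 and -1.19, and against the floor neither was 2-fold lower. As with ATF5, the reading of CBS thus changed with the probe set.

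**Figure D2:**
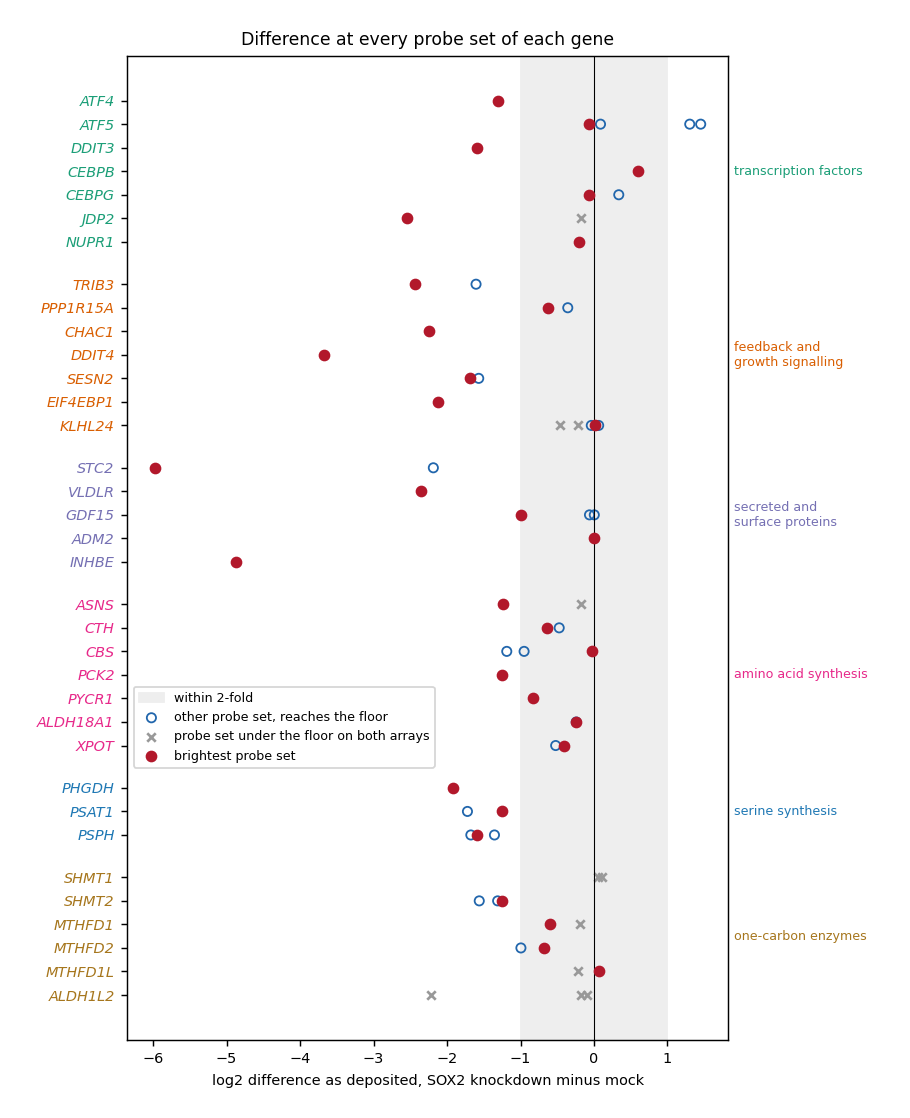
Log2 difference, SOX2 knockdown minus mock, at all 67 probe sets of the genes, with the brightest filled, others that reach the floor open, and those under the floor on both arrays as grey crosses. The 3 probe sets each of PSPH and SHMT2 lie close together left of the grey band, the dimmest of PSPH with its SOX2 knockdown value under the floor. Those of ATF5, CBS, GDF15 and STC2 are spread apart.

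Agreement between probe sets is the only spread these data hold, and it carries no variation between cultures, extractions or arrays. Over all measured genes the SD between probe sets of a gene was 0.49 on the log2 scale. Among the 16 members with several probe sets that reached the floor, the median range was 0.32, from 0.0038 for ALDH18A1 to 3.79 for STC2 as deposited, 1 value of which lay under the floor. Of the 17 called genes 6 had a further probe set that reached the floor, namely TRIB3, SESN2, STC2, PSAT1, PSPH and SHMT2. In all 6 every such probe set was also at least 2-fold lower as deposited. The dimmest of PSPH, at 28.8 under SOX2 knockdown and 73.7 under mock, reached the floor only on the mock array. Against the floor it was less than 2-fold lower. Of all 56 member probe sets that reached the floor, 26 were at least 2-fold lower as deposited and 2, both of ATF5, at least 2-fold higher. Among the 26, the brightest of STC2, INHBE and VLDLR and the dimmest of PSPH and of CBS reached the floor only on the mock array. Against the floor those of PSPH and CBS were less than 2-fold lower. Over all 24617 probe sets with 1 symbol that reached the floor, 6.87% were lower and 8.08% higher by as much, also as deposited.

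**Figure D3:**
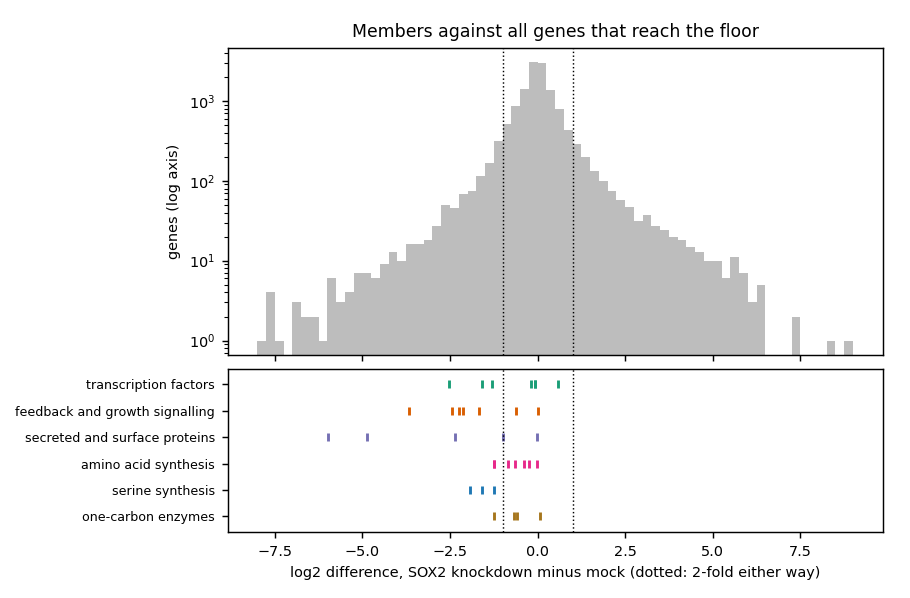
Histogram (log axis) of the log2 difference, SOX2 knockdown minus mock, over the 13609 genes that reach the floor, above ticks for the 33 measured members by role. The ticks lie mostly left of 0, and 17 lie left of the dotted 2-fold line.

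Other genes of the pathway were taken from lists of related genes. Of all measured genes 7.29% were at least 2-fold lower, 8.44% at least 2-fold higher and 50.5% below 0. The share at least 2-fold lower was 6.25% to 12.5% in the upstream, synthetase, folate, and IRE1 and ATF6 lists, near that of all genes. It was 25% to 27.3% in the transporter, purine, glutamate and CHOP lists, of 8 to 12 measured genes each, and 0% for the mitochondrial chaperones. The upstream arm, which holds the eIF2 kinases, eIF2 and its exchange factor eIF2B, was close to level. Of 16 genes 1 was at least 2-fold lower and 0 higher, with a median of -0.02. The gene called was EIF2S3, the gamma subunit of eIF2, at 2481 under SOX2 knockdown and 5085 under mock, a difference of -1.04. EIF2S1, the alpha subunit that the kinases phosphorylate, differed by -0.72. EIF2AK4, the kinase GCN2 that senses uncharged transfer RNA, differed by -0.65, but its other probe set by 0.37. Phosphorylation itself is not measured by expression arrays.

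The synthetases that charge transfer RNAs were mostly lower by less than 2-fold. Negative differences were found in 13 of 17 cytosolic ones, 2 passed the limit, and the median was -0.47. AARS1, for alanine, read 1040 under SOX2 knockdown and 3309 under mock, a difference of -1.67, and TARS1 for threonine and GARS1 for glycine differed by -1.07 and -0.94. Of 15 mitochondrial ones 12 lay below 0 and LARS2 alone was called, at -1.03, with a median of -0.17. The other probe set of LARS2 differed by -0.56, within 2-fold. NARS2 and WARS2 followed at -0.74 and -0.64, with -0.26 at the other probe set of WARS2.

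Among 8 measured amino acid transporters tied to the response, 6 had negative differences, 2 of them past the limit, and the median was -0.73. That median moved with the processing: it was -0.43 over 10 genes with no floor, -0.57 with the mean over probe sets, -0.25 over the 4 genes left when probe sets of the s, x and a types, which may hit more than 1 transcript, were dropped, and -0.11 at the probe set that differed least. SLC38A2, a carrier of small neutral amino acids, read 3642 under SOX2 knockdown and 9959 under mock, a difference of -1.45, with its other probe sets at -1.87 and -1.80. SLC7A5, the light chain of the leucine exchanger LAT1, differed by -1.09, and SLC3A2, its heavy chain, by -0.81. The arginine transporter SLC7A1 ran the other way, at 7306 under SOX2 knockdown and 3888 under mock, a difference of 0.91, though its further probe sets spanned -0.13 to 1.26.

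Other folate and glycine cleavage genes were mixed, with 2 of 16 at least 2-fold lower and a median of -0.17. GGH, which trims the glutamate tail of folates, read 427 under SOX2 knockdown and 2680 under mock, a difference of -2.65, and AMT of the glycine cleavage system differed by -1.19. MTHFD2L, a relative of MTHFD2, was higher by 0.78. Purine synthesis consumes the products of the folate enzymes, and 10 of its 11 measured genes had negative differences, with 3 past the limit and a median of -0.52. PRPS2, which makes the ribose donor, differed by -2.15 and PFAS, a middle step, by -2.08. ADSL followed at -1.07, with its other probe set at -1.08, while IMPDH1, on the branch to guanine nucleotides, was higher by 0.66.

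Enzymes of glutamate, proline, ornithine and aspartate outside the group went both ways, with 3 of 12 at least 2-fold lower, 1 higher and a median of 0.01. ARG2, the mitochondrial arginase, read 109 under SOX2 knockdown and 1374 under mock, a difference of -3.65, but its other probe set differed by -0.97. OAT, which links ornithine to proline and glutamate, differed by -1.63. The consecutive urea cycle enzymes ASS1 and ASL ran in opposite directions, at -1.22 and 1.03. GLUL, the glutamine synthetase, was higher by 0.77 and ALDH4A1, which breaks down proline, by 0.74.

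The IRE1 and ATF6 arms of the unfolded protein response, which run beside the PERK and ATF4 arm, were not lower as a list. Only 6 of 17 genes had negative differences, 2 genes passed the limit in each direction, and the median was 0.24. DNAJB9, a chaperone induced by IRE1 and XBP1, read 705 under SOX2 knockdown and 244 under mock, a difference of 1.53, and PDIA6, a disulfide isomerase, differed by 1.29. HYOU1 followed at 0.89. HERPUD1, a protein of endoplasmic reticulum degradation, differed by -1.01 and ERN1, which encodes IRE1, by -1.21, though other probe sets of these genes reached -0.16 and 0.01. The medians of this list and of the members differ in sign, and that difference was not tested.

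Further genes linked to CHOP and ATF3 were split, with 3 of 11 at least 2-fold lower, 1 higher and a median of 0.09. PMAIP1, or NOXA, a pro-death member of the BCL2 family, differed by -2.24. ATF3, a stress-induced repressor, read 90.2 under SOX2 knockdown and 361 under mock at its brightest probe set, but its other probe sets differed by -0.18 and 0.11. TNFRSF10B, the death receptor DR5, differed by -1.10, with its other probe sets at -0.58 and -0.56. SQSTM1, an autophagy receptor that NRF2 also drives, was higher by 1.04, with other probe sets from -0.26 to 0.62, and NFE2L1 was higher by 0.83. BCL2L11 differed by 0.63, but its other probe sets spanned -0.21 to 0.25. Of 11 mitochondrial chaperones and proteases none differed by 2-fold, with a median of -0.28. LONP1, the matrix protease, was the lowest of them at -0.97.

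**Figure D4:**
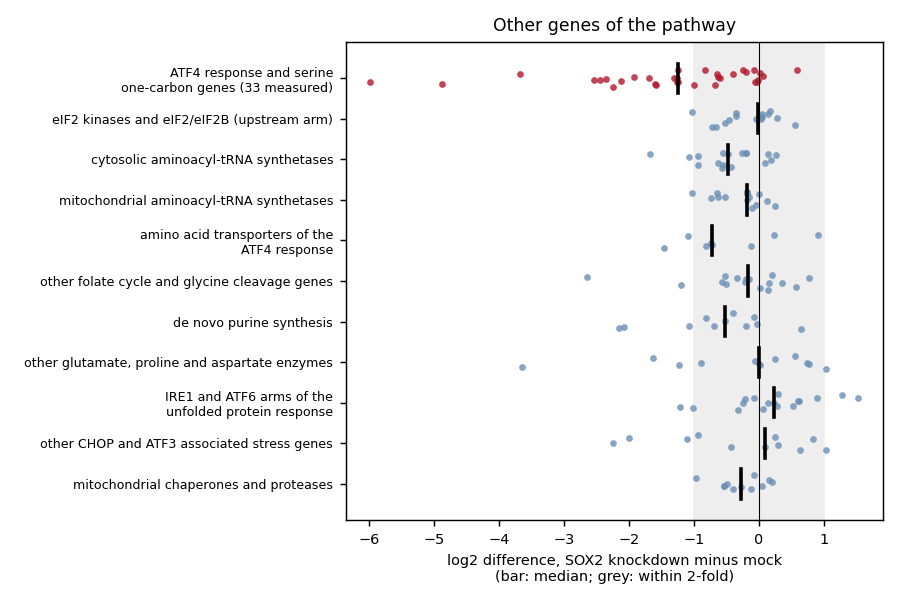
Log2 difference, SOX2 knockdown minus mock, of each measured gene (points) in the group described (red) and in 10 lists of related genes (blue), with the median as a black bar and the range within 2-fold in grey. The bar of the described group stands at -1.24, and those of the other lists lie between -0.73 and 0.24.

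To compare the members with their surroundings on the chromosome, each gene was set beside up to 5 measured genes on either side, in the order of the GRCh38.p14 gene table. For the 17 called genes, which lie on 11 chromosomes, the median of the neighbours' medians was 0.0083. Of their 167 neighbours, counted once per called gene, 16 were at least 2-fold lower, or 9.58%, beside 7.29% of all genes. That count includes called members themselves: INHBE as a neighbour of DDIT3 and of SHMT2, and both of those as neighbours of INHBE. Without those entries the share would lie close to that of all genes, so most of the margin comes from the members' own calls. EIF4EBP1, on chromosome 8, had the lowest surroundings. Of its 10 neighbours 5 were at least 2-fold lower, they ranged from -1.48 to -0.22, and their median was -1.01. Its own difference minus that median was -1.12. The next lowest neighbour median of a called gene was -0.49, for TRIB3, whose own difference was -2.44. INHBE, DDIT3 and SHMT2 lie close to each other on chromosome 12, INHBE being among the neighbours of each of the others, and the medians of their neighbours were 0.0083, 0.02 and 0.13. Single neighbours differed by more. Near SHMT2 they ranged from -4.87, which is INHBE, to 1.88.

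**Figure D5:**
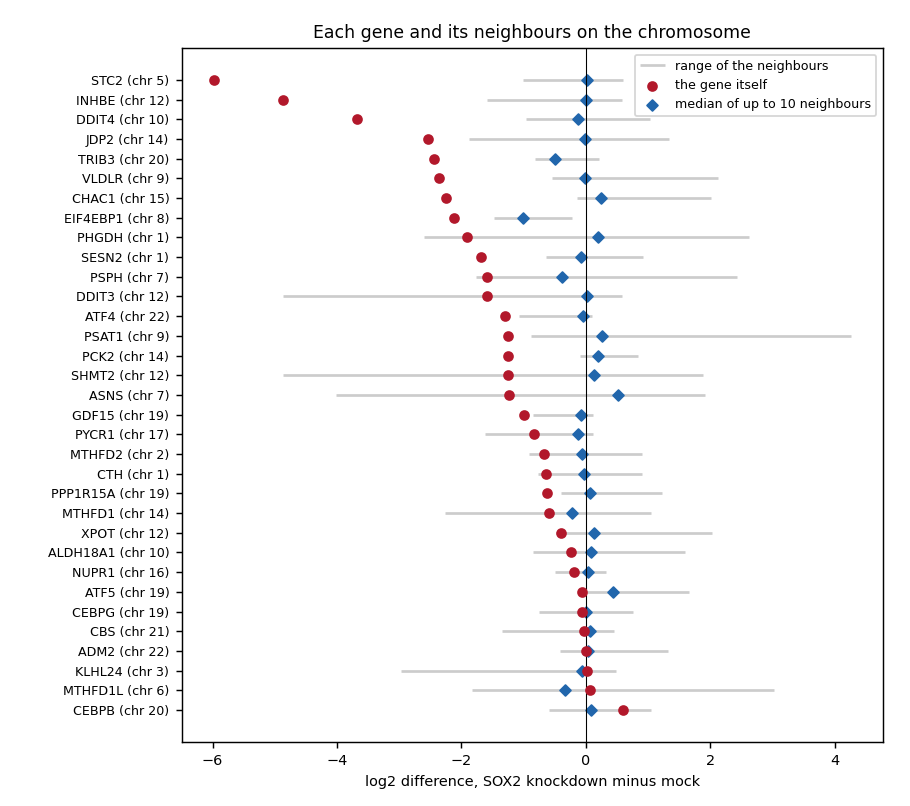
Log2 difference, SOX2 knockdown minus mock, of each measured gene (red circle), with the median (blue diamond) and range (grey line) of its measured neighbours on the chromosome. The diamonds lie near 0 for most genes, and that of EIF4EBP1 at -1.01.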

How the data were processed

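Total RNA from 1 SW620 culture per group was hybridised to 1 single-colour Affymetrix 3′ array each, per the labels' protocols. The authors deposited an intensity for every probe set. RMA is named in the submitters' processing notes, with version and settings not given in the sources used here. Their range shows a linear scale. RMA equalises the distributions of arrays, so total RNA per cell is not visible, and no detection calls come with the values. The number of arrays limits precision.

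Probe sets were named from a platform annotation, with symbols updated by Entrez identifier from a RefSeq table of GRCh38.p14. Of 54613 probe sets other than controls, 41091 had 1 symbol, of which 41037 were found by identifier, 1801 had several and 11721 none. Probe sets with several symbols were left out, including 5 that name a member. The deposited values were put on the log2 scale as they were, without a pseudocount or rescaling. The members, lists and limits were chosen with earlier results of these data known. All members were named, and from each related list up to 3 genes per direction with the largest difference of at least 1.5-fold. Groups came from the source names. Alternatives were median, lowess and quantile scaling, other floors, other choices of probe set, a pseudocount of 32 and other limits of size. Counting was checked on simulated arrays, with differences past the limit planted only in genes well above the floor. That check does not bear on calls near the limit or the floor. Python 3.11.15, numpy 2.4.6, pandas 2.3.3, statsmodels 0.14.6 and matplotlib 3.10.9 were used.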

Additional observations from a re-analysis of the deposited data

How the results depend on the processing

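Under 12 alternatives that kept the 2-fold limit, between 12 and 18 members were at least 2-fold lower and 0 at least 2-fold higher. Of all genes 5.21% to 9.16% were lower and 6.03% to 11.2% higher under the same settings. The member median ran from -1.26 to -0.84. The count of 12 came when probe sets that can match several transcripts were left out, which left 24 measured members. Of all genes 7.35% were lower then. With a limit of 1.5-fold, 23 members were lower and 1, CEBPB, was higher, beside 14.8% and 15% of all genes. With 3-fold 12 were lower and 0 higher, beside 3.43% and 4.44%. Of the 17 called genes 16 were called in every alternative in which they were measured. The exception was ASNS, at -0.71 with the mean over its probe sets, 1 of which lies under the floor. Of 380 recomputed member values 16 moved by more than 0.49 and none of the called ones changed sign. Many of these values could not move. Settings that only change which genes reach the floor leave each difference as it was. A gene with 1 probe set keeps its value whichever probe set is chosen. The counts of unchanged values and calls therefore overstate how far stability was checked. ATF5 was 0.69 with the mean over probe sets, and GDF15 was 0.0036 at whichever of its probe sets differed least. Of 120 recomputed medians of related lists 1 moved by more than 0.49: that of the amino acid transporters was -0.11 when each gene was read at the probe set that differed least. The scaling alternatives shifted the median of all genes by at most 0.02. No paired analysis was possible because each group holds 1 array.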
